A study of Mus musculus with 6 samples.

Results

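Chromatin contacts of an active enhancer bait and of a silent promoter bait were compared within 1 cell type, mouse embryonic stem (ES) cells of the J1 line (strain 129S4/SvJae). Of the 6 4C libraries of the series, 3 were chosen by cell type from their labels: 2 with the Sox2 control region (SCR) as bait, replicates 1 and 2, and 1 with Satb1 as bait. All 3 came from J1 cells, for which the labels name no genetic change and no drug, that had been passaged off their feeder cells, fixed with 2% formaldehyde for 10 min, treated with 0.4% SDS and cut with DpnII and then Csp6I. The labels do not say whether the SCR replicates were separate cultures, whereas the user guide calls them biological replicates. J1 is 1 cell line, and the files hold genomic DNA, so neither the activity of the baits nor markers of the cell type can be read from them; "active" and "silent" follow the study's description of the loci.

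The SCR is a cluster of enhancers downstream of Sox2, a gene for a transcription factor that maintains pluripotency, and ES cells need it for Sox2 expression. Satb1 encodes a nuclear protein that organizes chromatin in thymocytes. In 4C, fixed chromatin is cut and religated, and the fragments joined to a bait are read out by inverse PCR, so that reads per fragment report how often it lay near the bait. Contacts are most frequent close to any bait and fall with distance, and loops, domain borders and compartments are seen as departures from that fall.

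The bait positions in the file headers are 34660500 on chromosome 3 for the SCR, in no annotated gene, and 51962000 on chromosome 17 for Satb1 (mm9), in an intron of Satb1 and 1.58 kb from the nearest annotated transcription start of that gene. The lower-coordinate side of the SCR bait holds Sox2, and that of the Satb1 bait holds nearly all of the Satb1 gene. The fragments that contain these positions are not listed in the files. They span 52 bp for the SCR and 1721 bp for Satb1, and the one for the SCR has no Csp6I site. They are labelled bait fragments below only because they hold the bait positions. Primer positions are not given, so whether the primers lie in these fragments is not known. The fragments are shown with 1 further fragment for each bait, labelled most contacted. That fragment had the most reads among those outside annotated exons and between 20 kb and 1.5 Mb of the bait. For the SCR the mean share of the replicates was used. Fragments closer to the bait had more reads, up to 112390 and 62055 in SCR replicates 1 and 2 and 17499 for Satb1. Sequences are of the plus strand of mm9, read from the NCBIM37 assembly, and capitals mark the DpnII site GATC and the Csp6I site GTAC.
SCR bait fragment, whole, with the closing DpnII site, chr3:34660499-34660554: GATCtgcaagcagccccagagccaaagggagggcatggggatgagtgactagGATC
Satb1 bait fragment, first 26 bases, chr17:51961875-51961900: GATCaaggtgtctctgcctttacatt
SCR, most contacted fragment, first 300 bases, chr3:34564552-34564851: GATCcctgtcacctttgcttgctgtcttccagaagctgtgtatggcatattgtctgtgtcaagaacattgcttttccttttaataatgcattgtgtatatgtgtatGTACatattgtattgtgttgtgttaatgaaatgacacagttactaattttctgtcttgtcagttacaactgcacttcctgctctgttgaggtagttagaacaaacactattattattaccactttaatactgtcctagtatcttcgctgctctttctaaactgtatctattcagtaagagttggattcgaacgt
Satb1, most contacted fragment, first 300 bases, chr17:51926240-51926539: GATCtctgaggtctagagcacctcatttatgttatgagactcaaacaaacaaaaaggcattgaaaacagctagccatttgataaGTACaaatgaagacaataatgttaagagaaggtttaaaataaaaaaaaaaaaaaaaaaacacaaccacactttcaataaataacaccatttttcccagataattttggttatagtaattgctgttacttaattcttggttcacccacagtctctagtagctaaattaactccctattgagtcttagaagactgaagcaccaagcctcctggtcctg

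The SCR fragment is 688 bp long and lies 95.6 kb from the bait in an intron of Sox2ot, the long noncoding RNA gene that surrounds Sox2. It held 83425 reads in replicate 1 and 29120 reads in replicate 2. These were 2.17% and 1.25% of the reads between 20 kb and 1.5 Mb of the bait, the range used below. Among the fragments of that range it ranked 1 in replicate 1 and 6 in replicate 2. The Satb1 fragment is 337 bp long, lies 35.6 kb from its bait in an intron of Satb1 and held 4725 reads, or 0.465%.

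The deposited read counts sum to 6447786 and 3915756 for the SCR replicates and to 1847598 for Satb1. Reads within 20 kb of the bait, which made up 26.3%, 24.8% and 11.9%, were left out. The range from 20 kb to 1.5 Mb then held 3844194, 2327521 and 1015527 reads on 7301 fragments for the SCR and 7450 for Satb1. The SCR replicates differed from each other far beyond counting error (chi-square of 1209 per degree of freedom over 290 bins of 10 kb with reads), so they were kept as separate samples. PCR duplicates are counted as reads, and the intervals below cover counting error only. With 2 libraries against 1, the smallest p that an exact permutation test can give is 0.333, so no difference between the baits was tested. Values of each library are given, and the gap between the SCR replicates is the only measure of error. Bait, locus, chromosome and activity differ together and cannot be told apart, nor can a difference between single library preparations.

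Contacts of the SCR fell off more steeply than those of Satb1, and on the Sox2 side above all. Between 20 and 50 kb from the bait, the signal per kb was 2889 and 2786 for SCR replicates 1 and 2 and 1708 for Satb1, in RPM, the usual scaling of reads to a common library total, taken here over the reads in the range. At 50 to 100 kb the SCR had barely fallen, to 2786 and 2610, while Satb1 was at 943. The curves then crossed. At 200 to 500 kb the SCR had 239 and 251 and Satb1 522. At 1000 to 1500 kb the SCR had 26.2 and 19.2 and Satb1 94.1, which is 4.15 times the SCR mean. From the nearest to the farthest of these classes the SCR signal thus fell 110-fold and 145-fold and that of Satb1 18.2-fold. Since each library is scaled to its own reads in the range, a higher share close to the bait by itself lowers the share far away.

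The slope of log10 reads per kb on log10 distance, over 10 classes of equal width on the log scale, was -1.24 and -1.27 for the SCR (mean -1.25 ± 0.020, SD, n = 2) and -0.68 for Satb1. The means differed by -0.57, and the gap from Satb1 to the nearer replicate was 20.04 times the gap between the replicates. That multiple rests on a small gap between 2 libraries. With 150 kb left out around the bait, the SCR slopes were -1.272 and -1.504 (SD 0.164), both still steeper than that of Satb1. The gap from Satb1 to the nearer replicate was then only slightly larger than the gap between the replicates. Over the whole range, most of the difference lay on 1 side. On the lower-coordinate side the slopes were -1.57 and -1.61 for the SCR and -0.60 for Satb1, whereas on the higher-coordinate side the SCR slopes of -0.83 and -0.94 enclosed the -0.85 of Satb1. Of the reads of the range, 50% lay within 109 kb of the bait in both SCR replicates and within 322 kb for Satb1.

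**Figure D1:**
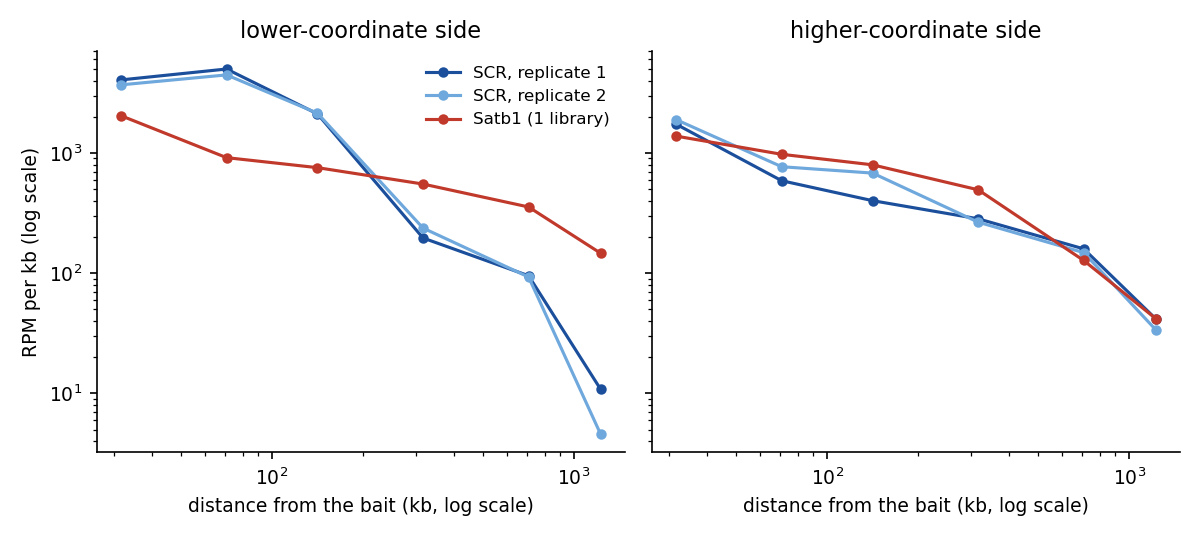
RPM of the reads in the range per kb (y-axis, log scale) against distance from the bait in kb (x-axis, log scale) for the lower-coordinate side (left) and the higher-coordinate side (right), 1 point per distance class and library. The SCR libraries lie below Satb1 beyond 200 kb on the lower-coordinate side, and at 1000 to 1500 kb on the other side they stand at 41.6 and 33.8 beside 41.8 for Satb1.

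The balance between the sides of the bait changed with distance, and did so differently for the baits. The SCR favoured the Sox2 side up to 200 kb and the other side beyond, while Satb1 was close to even between 50 and 500 kb and favoured the lower-coordinate side beyond 500 kb. At 50 to 100 kb the lower-coordinate side of the SCR had 8.50 times the reads of the higher-coordinate side in replicate 1 and 5.80 times in replicate 2, against 0.938 times for Satb1. At 100 to 200 kb, the distance of Sox2, the ratios were 5.27 and 3.15 for the SCR and 0.947 for Satb1. Between 20 and 50 kb all 3 libraries leaned to the lower-coordinate side, with ratios of 2.34, 1.95 and 1.48.

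Farther out the SCR turned. Its lower-coordinate side had 0.692 and 0.893 times the reads of the other side at 200 to 500 kb, where Satb1 had 1.12 times. At 500 to 1000 kb the ratios were 0.598 and 0.627 for the SCR and 2.79 for Satb1. At 1000 to 1500 kb they were 0.260 and 0.135 for the SCR and 3.50 for Satb1. In these last 2 classes the gap between the replicates was smaller than the gap to Satb1, while at 200 to 500 kb the nearer replicate and Satb1 both lay close to even.

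**Figure D2:**
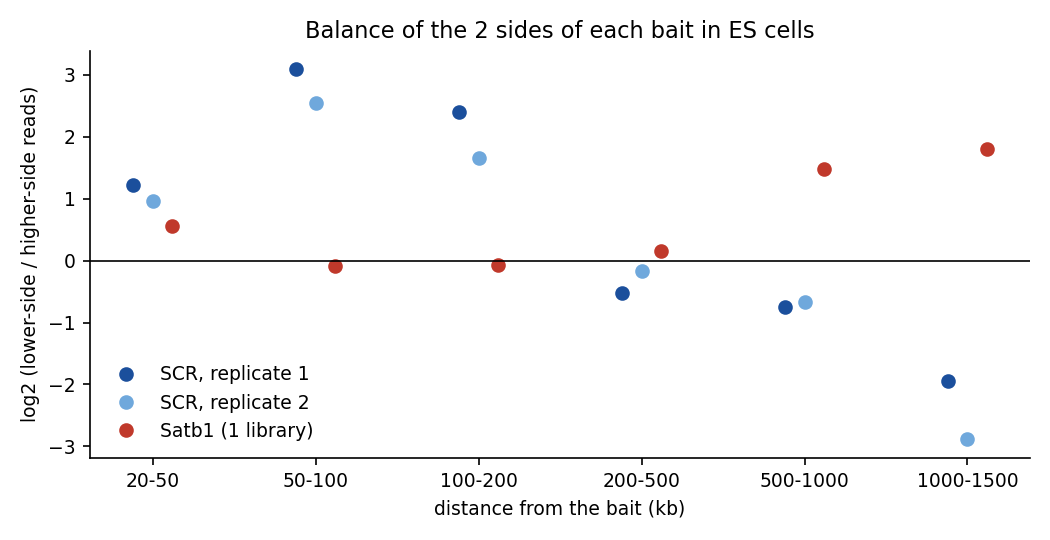
Log2 ratio of reads on the lower-coordinate side to reads on the higher-coordinate side (y-axis) by distance class in kb (x-axis), 1 point per library. The SCR points stand at 3.09 and 2.54 at 50 to 100 kb and below 0 from 200 kb on, while Satb1 stands at 0.56 at 20 to 50 kb, lies near 0 from 50 to 500 kb and stands at 1.48 and 1.81 beyond.

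Summed over the range, these opposite patterns left a small difference. The lower-coordinate side held 69.3% and 66.7% of the reads for the SCR and 59.8% for Satb1 (95% Wilson interval 59.7 to 59.9%). The gap from Satb1 to the nearer replicate was 2.55 times the gap between the replicates. Counted as fragments with a read in place of reads, the order turned round, with 44.1% and 44.4% on the lower-coordinate side for the SCR and 59.8% for Satb1. Leaving out 150 kb around each bait turned it as well, to 41.5% and 44.8% against 62.4%. The surplus of SCR reads on the Sox2 side thus lay within 150 kb of the bait.

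Each bin of 10 kb was also set against its mirror bin, equally far from the bait but in the opposite direction. A bin on the lower-coordinate side had at least 2 times the reads of its mirror bin in 25% of 144 pairs with reads for SCR replicate 1, in 21.2% of 146 for replicate 2 and in 54.7% of 148 for Satb1. The reverse held in 48.6%, 45.2% and 3.38%. Both SCR replicates gave the lower-coordinate bin at least 2 times its mirror in 10.8% of 148 pairs and the higher-coordinate bin in 29.1%. Of the 13 pairs from 20 to 150 kb, 10 and 9 leaned to the Sox2 side in SCR replicates 1 and 2, and 8 in both at once. In each replicate 0 leaned to the other side. For Satb1, 1 pair leaned each way there. Of the 50 pairs from 1000 to 1500 kb, 33 and 34 leaned to the higher-coordinate side in SCR replicates 1 and 2, and 9 and 9 to the lower. In both replicates at once, 24 leaned to the higher-coordinate side and 2 to the lower. For Satb1 36 leaned to the lower-coordinate side and 2 to the higher. As Satb1 has 1 library, its counts compare with those of single SCR replicates.

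Reads of the SCR were piled up in few places, and those of Satb1 were spread out. The 10 highest of the 296 bins held 53.0% and 48.8% of the reads for the SCR (mean 50.9% ± 2.96, SD, n = 2) and 16.2% for Satb1 (95% Wilson interval 16.2 to 16.3%). The mean for the SCR was thus 3.14 times the Satb1 value, and the gap from Satb1 to the nearer replicate was 7.79 times the gap between the replicates. It took 9 and 11 bins to reach 50% of the reads for the SCR and 52 bins for Satb1. The Gini coefficient over bins, which is 0 for an even spread and approaches 1 when all reads fall in 1 bin, was 0.811 and 0.797 for the SCR and 0.537 for Satb1. The highest bin held 104 and 100.5 times the reads of the median bin for the SCR and 13.0 times for Satb1.

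The same held for single fragments. For the SCR, 88 and 109 fragments held 50% of the reads, or 3.596% and 3.51% of the fragments with a read, and for Satb1 390 fragments or 10.5%. The 10 highest fragments held 13.8% and 13.6% of the reads for the SCR and 3.78% for Satb1. When each bin was divided by the mean of its distance class, the 10 highest bins made up 23.3% and 22.4% of the summed ratios for the SCR and 12.7% for Satb1, and the difference between the baits fell from 34.7 to 10.2 percentage points. With 150 kb left out around the bait the shares were 24.0%, 22.1% and 12.8%.

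**Figure D3:**
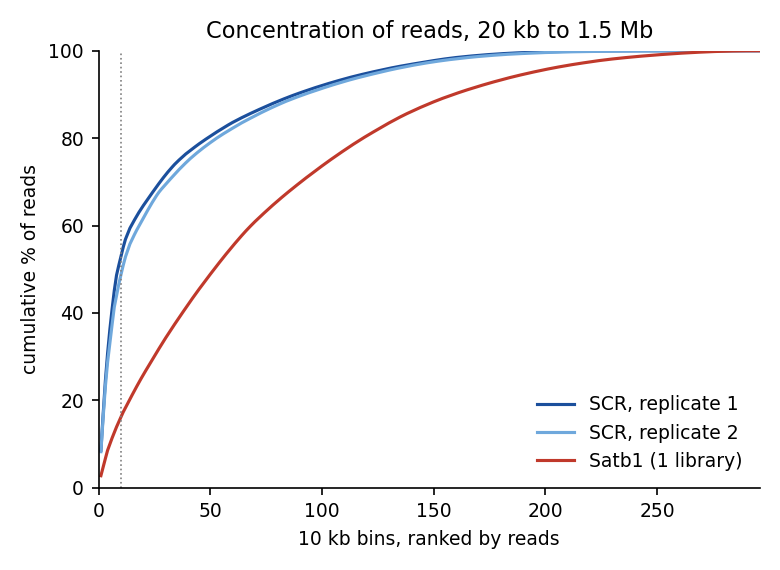
Cumulative share of the reads between 20 kb and 1.5 Mb (y-axis, percent) over the 296 bins of 10 kb ranked by reads within each library (x-axis); the dotted line marks the 10 highest bins. At that line the SCR replicates stand at 53.0% and 48.8% and Satb1 at 16.2%.

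The bins that carried the SCR reads formed 1 block on the Sox2 side. Of the 10 highest bins 9 lay on that side in each replicate, all within 120 kb of the bait, and 8 bins were shared by the replicates. These 8, chosen for being high, held 48.6% and 43.6% of the reads. The highest in both replicates ran from 34560501 to 34570500 of chromosome 3, in Sox2ot, with 8.57% and 8.27% of the reads. The bin from 34540501 to 34550500, with most of Sox2, had 8.18% and 7.10%, and that from 34550501 to 34560500, with the end of Sox2, had 7.73% and 7.79%. Nearer to the SCR, in sequence without an annotated gene, the bin from 34590501 to 34600500 had 6.33% and 5.61%. The bin with most of Sox2 held 6.50 and 5.23 times the mean of its distance class. The bin starting at 34560501 held 2.89 and 2.92 times and that starting at 34550501 held 2.60 and 2.75 times. Both of these fall in the next nearer class, which has a higher mean. The larger multiple of the Sox2 bin thus does not mean that it had more reads than they did. In each of these 4 bins all fragments had reads, and the largest single fragment gave 14.2% to 28.2% of a bin's reads.

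For Satb1 the 10 highest bins lay 5 on each side, up to 190 kb away. The highest ran from 51932001 to 51942000 of chromosome 17, inside Satb1, with 2.77% of the reads, followed by 51982001 to 51992000 on the other side, upstream of the gene, with 1.98%. The 3 further bins inside Satb1 among the 10, starting at 51922001, 51912001 and 51892001, had 1.93%, 1.41% and 1.39%. The bin farthest from the bait, from 52142001 to 52152000, 180 to 190 kb upstream with no annotated gene, had 1.27%, or 2.03 times the mean of its distance class. Over the whole range the highest bin relative to its class was at 4.64 times for Satb1 and at 11.9 and 13.2 times for the SCR. In each library that bin was not among the 10 with the most reads, so for the SCR it was not at Sox2.

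**Figure D4:**
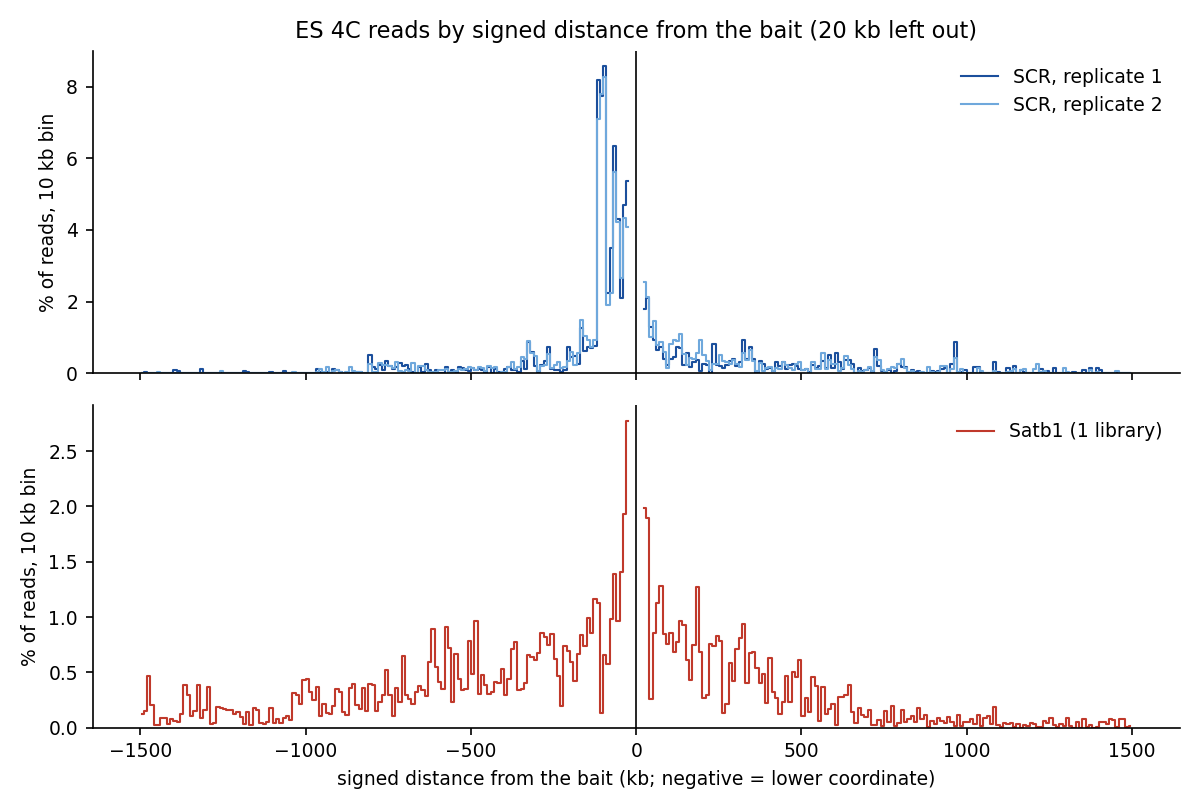
Share of the reads between 20 kb and 1.5 Mb in each bin of 10 kb (y-axis, percent, with different scales in the panels) by signed distance from the bait in kb (x-axis), for the SCR replicates (top) and Satb1 (bottom). The SCR reads form a block from 20 to 120 kb on the lower-coordinate side with a maximum of 8.57%, while no Satb1 bin exceeds 2.77%.

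Relative to the mean of their distance class, Sox2 stood highest among the 13 genes near the SCR and Tbc1d5 among the 6 entries near Satb1. Genes around the baits were described by the mean reads per fragment over the gene and 5 kb on each side, relative to the mean of their distance class on both sides of the same bait. Sox2 (ENSMUSG00000074637.3, chr3:34548927-34551383, plus strand) had 8046 and 7475 RPM per fragment, 6.46 and 6.25 times its class, with reads on all 16 fragments and 12.9% and 12.0% of the reads of the range. Sox2ot (chr3:34003360-34581541, plus strand), 578 kb long and overlapping Sox2, had 40.4% and 41.1% of the reads, 1.45 and 1.43 times its class. Its signal was not even: of its 8 bins from 70 to 150 kb from the bait, 5 had at least 2 times the reads of their mirror bin in both replicates and 0 the reverse, while of the 51 bins beyond, 2 had more and 11 fewer. The background share of bins so called over the whole range was 10.8% in this direction and 29.1% in the other, and of all 13 pairs from 20 to 150 kb 8 were called towards Sox2.

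On the other side of the SCR, from 988 kb on, lie Atp11b, which encodes a phospholipid flippase subunit, Dcun1d1, for a cofactor of cullin neddylation, and Mccc1, for a subunit of a leucine-degrading mitochondrial enzyme. Atp11b had 3.34 and 2.09 times the mean of its class, with reads on 43 and 64 of its 249 fragments. Dcun1d1 had 3.01 and 4.77 times its class, and Mccc1 1.53 and 5.57 times. All 3 were above their class in both replicates, but the replicates differed in size most for Mccc1, with 15.7 and 43.4 RPM per fragment. The transcript D3Ertd254e had 3.07 and 0.712 times its class from 4 and 7 fragments with reads, so its direction differed between the replicates.

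Acad9 and Qrfpr, farther out, were below their class. Acad9, for a protein of mitochondrial complex I assembly, had 0.341 and 0.440 times its class. Qrfpr, for a neuropeptide receptor, had 0.017 and 0.766 times its class from 6 and 11 of 111 fragments. On the Sox2 side beyond Sox2ot, Ttc14 had 0.472 and 0.470 times and Ccdc39, for a protein of motile cilia, 0.372 and 0.503 times its class. Dnajc19, for a factor of mitochondrial protein import, had 1.32 and 0.825 times. The other genes near the SCR, Fxr1 and Ccdc144b, lay between 1.38 and 1.91 times their class. Of the 13 genes in all, 7 were above their class in both replicates and 4 below. The share of all bins above their class is not given, so these counts cannot be read as a result about genes. The class also takes in both sides. At 1000 to 1500 kb the higher-coordinate side as a whole had 41.6 and 33.8 RPM per kb, beside 26.2 and 19.2 for both sides together. That side total includes the reads on the genes of that side. Whether a level above the class there was particular to genes was not tested.

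Around Satb1, 3 of 6 annotated entries were above their class, all on the lower-coordinate side. The share of all bins above their class is not given, so this count cannot be read as a result about genes. The class also takes in both sides. At 500 to 1000 kb the lower-coordinate side as a whole had 355 RPM per kb, beside 241 for both sides together. At 1000 to 1500 kb it had 146 beside 94.1. These side totals include the reads on the genes of that side. Whether a level above the class at these distances was particular to genes was not tested. Satb1 itself (chr17:51875512-51972615, minus strand) had 1.26 times its class, with reads on 137 of 140 fragments. Tbc1d5 (chr17:50872452-51318674, minus strand), for a Rab GTPase-activating protein, begins 639 kb from the bait and had 1.65 times its class, with reads on 601 of 1049 fragments and 11.9% of the reads of the range. Plcl2, for a phospholipase C-like signalling protein, lies 1130 kb away and had 1.38 times its class. On the other side, 2 annotated entries on opposite strands carry the name Kcnh8, that of a voltage-gated potassium channel gene. The entry at 898 kb, on the plus strand, had 0.559 times its class, and that at 1126 kb, on the minus strand, 0.282 times. Gm7334, a gene of 1.35 kb, had 0.244 times its class from 3 of 36 fragments. Of the bins that overlap Tbc1d5, 34 of 45 had at least 2 times the reads of their mirror bins, beside 54.7% of all pairs for that side, 37 of 50 pairs at 500 to 1000 kb and 36 of 50 at 1000 to 1500 kb. The count for Tbc1d5 was thus close to that of all bins at its distance. For Plcl2 the count was 16 of 19. For Kcnh8, taken as the span of both entries with the sequence between them, the mirror bin, on the lower-coordinate side, was the higher by this rule in 17 of 26. Bins of Tbc1d5 and Kcnh8 are partly mirrors of each other, so these counts are not separate findings.

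Protein-coding gene bodies held 12.3% of the fragments in the range around the SCR and 28.1% around Satb1. They held 7.69% and 6.93% of the SCR reads and 25.3% of the Satb1 reads. Relative to the mean of fragments at the same distance, reads in gene bodies were 2.95 and 2.94 times as many for the SCR, where Sox2 is among them, and 1.32 times for Satb1.

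Fragments with at least 1 read reached farther out for Satb1 than for the SCR, although its library was the shallowest. In the range, 33.5% and 42.5% of the fragments had a read for the SCR and 49.8% for Satb1. With each library thinned to 1015527 reads by expectation, the shares were 28.1%, 40.0% and 49.8%. Satb1 lay above both replicates here, but its gap to the nearer replicate was only 0.822 times the gap between the replicates. The SCR libraries thus differed from each other by more than Satb1 did from the nearer one. Without SCR replicate 1 the difference of the SCR from Satb1 was -9.79 percentage points in place of -15.7.

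Whether a fragment was seen depended on its ends. A prey read begins at a DpnII site, and 84.0% of the fragments around the SCR and 84.2% around Satb1 had at least 1 end whose first 27 or 26 bases occur once in the mm9 genome. Fragments with no such end had a read in 2.15%, 2.75% and 4.76% of cases, and those with one in 39.5%, 50.1% and 58.3%. Of fragments with a unique end, those with a Csp6I site were detected in 43.9%, 53.9% and 61.3% and those without in 35.6%, 46.7% and 55.6%, the same order of baits in each kind.

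Among fragments with a unique end, detection was nearly complete close to every bait. At 20 to 50 kb, 93.3% and 94.8% had a read for the SCR and 97.5% for Satb1, with overlapping 95% Wilson intervals (87.7 to 96.4%, 89.6 to 97.4% and 92.9 to 99.1%). At 100 to 200 kb the shares were 79.7%, 90.3% and 88.2%, with Satb1 between the replicates. At 200 to 500 kb they were 56.8%, 73.3% and 79.8%, and at 500 to 1000 kb 39.5%, 52.2% and 57.9%. At 1000 to 1500 kb they were 9.55%, 15.8% and 33.2% (intervals 8.35 to 10.9%, 14.3 to 17.4% and 31.3 to 35.3%). Detection in the outermost class was thus more than 2 times as frequent for Satb1 as in either SCR replicate, and in the class before it the gap to the nearer replicate was smaller than that between the replicates.

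The sides of the bait differed in the outermost class for both baits, in opposite directions. With the SCR, 4.27% and 8.55% of fragments with a unique end had a read on the lower-coordinate side and 14.8% and 23.0% on the other. With Satb1 it was 45.8% on the lower-coordinate side and 18.9% on the other, where it lay between the SCR replicates.

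**Figure D5:**
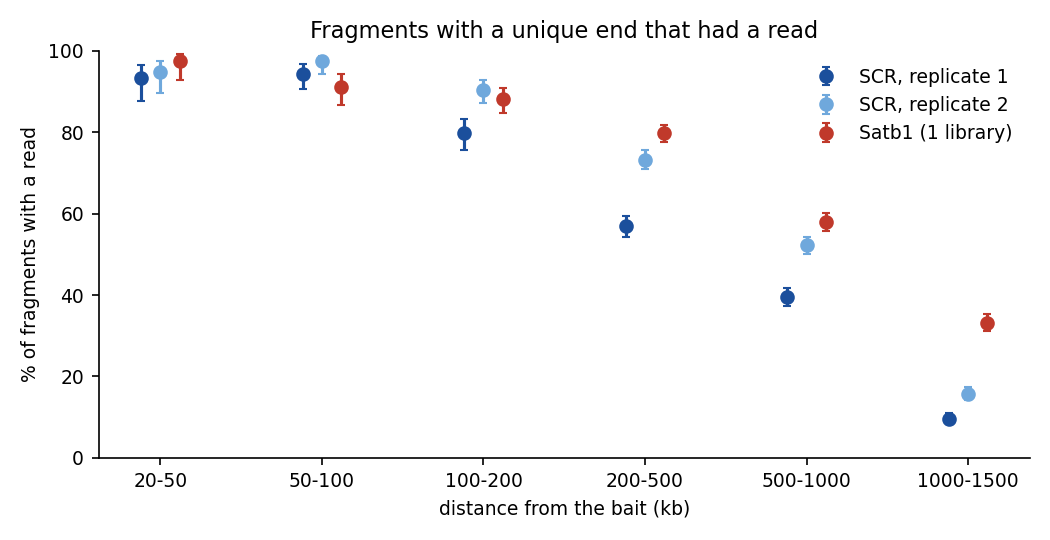
Share of fragments with a unique end that had at least 1 read (y-axis, percent) by distance class in kb (x-axis), 1 point per library with 95% Wilson intervals of counting error. From 20 to 100 kb the values run from 91.2% to 97.5%, and at 1000 to 1500 kb Satb1 stands at 33.2% against 9.55% and 15.8% for the SCR.

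Beyond 1.5 Mb the Satb1 bait had a larger share of its reads than the SCR. Of all reads on the bait chromosome, 14.1% and 15.7% lay there for the SCR (mean 14.9% ± 1.16, SD, n = 2) and 33.2% for Satb1 (95% Wilson interval 33.1 to 33.2%), 2.23 times the SCR mean. The gap to the nearer replicate was 10.6 times the gap between the replicates. The chromosomes differ in length, with 31.7 and 124.9 Mb of assembled sequence on the sides of the SCR and 49.0 and 43.3 Mb on those of Satb1. Within 30 Mb of the baits the shares were 11.1%, 12.4% and 29.6%. Taken over the reads beyond 150 kb alone, they were 40.8% and 42.7% for the SCR and 45.6% for Satb1, a difference of -3.89 in place of -18.3 percentage points.

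Per Mb of sequence, the SCR replicates had 6215 and 7832 RPM, here of all reads on the bait chromosome, at 1.5 to 5 Mb and Satb1 15261, which is 2.17 times their mean. The ratio was 2.53 at 5 to 20 Mb, with 1688 and 1529 against 4064, and 3.28 at 20 to 30 Mb, with 676 and 932 against 2639. Distant reads lay on few fragments, 2881 and 4475 of 383968 for the SCR and 6121 of 221999 for Satb1, with a median of 3, 11 and 26 reads each. In SCR replicate 1, 98 fragments held 50% of the distant reads, in replicate 2 147, and with Satb1 602. Distant levels thus rest on few fragments, fewest in SCR replicate 1.

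The sides differed less for the SCR than for Satb1 at these distances, most clearly at 20 to 30 Mb. From 5 to 20 Mb the SCR had 1653 and 1685 RPM per Mb on the lower-coordinate side and 1723 and 1373 on the higher. Satb1 had 3406 and 4722 there, not far from the imbalance of SCR replicate 2. At 20 to 30 Mb the SCR had 652 and 829 on the lower-coordinate side and 701 and 1034 on the higher. Satb1 had 1125 on the lower-coordinate side and 4153 on the higher at that distance. Its fragments with a unique end had a read in 1.16% and 3.57% of cases. This is the reverse of the lean to the lower-coordinate side found for Satb1 between 500 kb and 5 Mb, where at 1.5 to 5 Mb the lower-coordinate side had 19403 and the higher 11119. The SCR leaned the same way at 1.5 to 5 Mb, with 6745 and 8681 on the lower-coordinate side and 5684 and 6984 on the higher.

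Bins of 1 Mb that lay at least 5 Mb from the bait were then divided by the number of protein-coding genes starting in them, which serves as a rough guide to the gene-rich and gene-poor compartments of chromosomes. Gene-rich bins had 9 or more such genes on chromosome 3 and 15 or more on chromosome 17, and gene-poor bins at most 2 and at most 4. The SCR had 911 and 837 RPM per Mb in gene-rich bins and 459 and 395 in gene-poor bins. Satb1 had 2006 in gene-rich and 3176 in gene-poor bins. Across bins, Spearman's rho between genes and reads was 0.267 and 0.173 for the SCR over 145 bins and -0.235 for Satb1 over 81 bins. Neighbouring bins share their library and base composition, so these values are descriptions. For Satb1 the contrast went with the arm of the chromosome: 21 of the 23 gene-rich bins lay on the lower-coordinate side, and within that side gene-rich bins had 1782 and gene-poor bins 1654 RPM per Mb. On its other side 2 gene-rich bins had 4354 and 26 gene-poor bins 3703, so the order of the whole was found on neither side. For the SCR, 36 of 38 gene-rich bins lay on the higher-coordinate side, with 905 and 798 there against 277 and 248 in its gene-poor bins. On the lower-coordinate side of the SCR, 2 gene-rich bins had 1022 and 1534 and 13 gene-poor bins 1003 and 837. The gap there was thus small in replicate 1, and the gene-poor bins had more reads than the gene-rich bins of the other side. None of these bins were matched for distance, and the SCR sides reach 31.7 and 124.9 Mb. On the higher-coordinate side the SCR fell from 1723 and 1373 RPM per Mb at 5 to 20 Mb to 339 and 390 beyond 30 Mb.

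Of the list of pluripotency genes, 1 lay beyond 1.5 Mb on each bait chromosome, and each is given as a single region. Around Tet2, which encodes a methylcytosine dioxygenase, 98.5 Mb from the SCR at 133126643 to 133207354 of chromosome 3 (minus strand), the SCR replicates had 81.4 and 152 RPM per Mb within 500 kb on each side, above 42.1% and 40.7% of the 145 distant bins, whose medians were 170 and 339. Around Pou5f1, which encodes Oct4, 16.3 Mb from the Satb1 bait at 35642982 to 35647721 of chromosome 17 (plus strand), Satb1 had 761, above 17.3% of the 81 distant bins, whose median was 2376. These ranks are over all distant bins and were not matched for distance. On the side of Tet2 the SCR had 339 and 390 RPM per Mb beyond 30 Mb. On the side of Pou5f1 Satb1 had 3406 at 5 to 20 Mb.

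The remaining libraries of the same baits, 1 each from other cells, gave the following values. For the SCR after in vitro differentiation of ES cells, which the labels give as J1 and the Methods as F1 cells, the slope was -0.95, the 10 highest bins held 24.9% of the reads, the lower-coordinate side 36.2%, and 29.2% lay beyond 1.5 Mb. For Satb1 in CD4+/CD8+ thymocytes of c57/Bl6 mice these were -0.72, 18.9%, 33.7% and 16.99%. For these thymocytes the Methods give a higher SDS concentration than the labels, so that permeabilization may have differed from that of the ES cells. In slope and concentration both ES SCR replicates lay outside the range of the ES Satb1 library and these other libraries of the same baits. The thymocyte library with a bait at Ikzf1 had 51.3% of its reads in the 10 highest bins, between the SCR replicates, and a slope of -1.95. In the share beyond 1.5 Mb the thymocyte Satb1 library, at 16.99%, lay closer to the ES SCR replicates, at 14.1% and 15.7%, than to the ES Satb1 library, at 33.2%. None of these differences was tested.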

How the data were processed

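Each of the 6 deposited files lists, for 1 bait chromosome, the DpnII fragments by midpoint with their raw counts of reads. Per the Methods and the labels, the authors removed bait sequence with Sabre, tolerating few mismatches, which left 27 (SCR) or 26 (Satb1) of 50 bases. Prey reads were aligned to mm9 with Bowtie, given as 1.0.0 by the submitters, and assigned to fragments. The user guide drops fragments with an outsized share of reads, in its example the fragment that holds the SCR bait position. These deposited counts are not normalized, and PCR duplicates remain. Quantile normalization, which the study uses between libraries of 1 bait, was not applied between baits.

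Fragments, GTAC sites and end uniqueness were computed from NCBIM37 (mm9), where each listed midpoint matched a fragment, and genes were taken from GENCODE vM1. Positions of bins are counted from 1. Analyses used Python version 3.11.15, numpy version 2.4.6, pandas version 2.3.3 and scipy version 1.17.1. Slopes, side shares, top bins and thinning were tested on simulated data. Equal depth means the expected share after drawing 1015527 reads without replacement. No test across many features was run.

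The comparison, the members and the gene lists were chosen with earlier results of these data known. Named are Sox2, Sox2ot, Satb1, the protein-coding genes within 1.5 Mb (5 highest and 5 lowest at each bait with values), genes in the 10 highest bins, and Pou5f1 and Tet2 from a list of pluripotency genes. Mirror bins, bins grouped by gene number and the exclusion of 150 kb were chosen after seeing the data. Alternatives varied the excluded distance, the outer limit, bins, classes, capping, the fragments used and the replicates. The other 3 libraries gave values for context only.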

Additional observations from a re-analysis of the deposited data

Results flagged for a closer look

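The balance of the sides differed in direction between the baits, with both SCR replicates on one side of even and the Satb1 library on the other, in 5 of the 6 distance classes. As log2 ratios of lower-coordinate to higher-coordinate reads, Satb1 had -0.092 at 50 to 100 kb (SCR 3.09 and 2.54), -0.078 at 100 to 200 kb (SCR 2.40 and 1.65), 0.16 at 200 to 500 kb (SCR -0.53 and -0.16), 1.48 at 500 to 1000 kb (SCR -0.74 and -0.67) and 1.81 at 1000 to 1500 kb (SCR -1.95 and -2.88). The difference was not tested, since 1 library stands for Satb1. Between 50 and 500 kb the Satb1 values were within 0.16 of an even balance, so that its direction there rests on small differences.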

How the results depend on the processing

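Values here are the SCR mean minus Satb1. The slope difference of -0.57 became -0.46 with 10 kb, -0.80 with 50 kb and -0.39 with 150 kb left out around the bait, and -0.48 with only fragments that have a GTAC site and a unique end. With 150 kb left out, the SD of the SCR slopes rose from 0.020 to 0.164. Satb1 then lay only slightly farther from the nearer replicate than the replicates lay from each other. The difference in the lower-coordinate share, 8.21 percentage points, became 4.31 with counts capped at the 99th percentile and 21.5 with an outer limit of 500 kb. It reversed to -15.6 when fragments with a read were counted and to -19.3 with 150 kb left out. The difference in the share of the 10 highest bins, 34.7 points, became 38.7 with 50 kb left out, 30.3 with capped counts, 10.2 after division by the distance class and 10.3 with 150 kb left out. The difference in the share beyond 1.5 Mb, -18.3 points, became -17.0 with GTAC sites and unique ends and -3.89 over reads beyond 150 kb. The exclusion of 150 kb was chosen after seeing the data, and causes were not tested. The other 18 of the 32 processing alternatives moved a value by less than the SD of the SCR replicates and kept its direction, among them all 6 for detection at equal depth, where that SD was 8.42 points. Leaving out 1 SCR replicate gave differences from -0.59 to -0.56 for the slope, from 6.86 to 9.55 for the lower-coordinate share, from 32.6 to 36.8 for the highest bins, from -21.7 to -9.79 for detection and from -19.1 to -17.5 for distant reads. No paired analysis was possible because only 1 of the groups compared has replicate numbers.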
